A study of Bos indicus with 12 samples.

Results

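The comparison was between blood RNA of 6 Gir cows and 6 Shweta Kapila cows, which together make up the 12 libraries of the series. Members were the libraries that the labels assign to each breed, taken over both milk-yield classes. Gir and Shweta Kapila are Indian zebu breeds (Bos indicus): Gir is a widely used dairy breed, and Shweta Kapila is a white breed of the Goa region. The cows were female and in their second or the third lactation. Within each breed, lactation records had placed 3 cows in a high-yielding and 3 in a low-yielding class, so the groups were Gir high, Gir low, Shweta Kapila high and Shweta Kapila low. No treatment, transgene or other genotype is given for any group. Yield was ranked within a breed, so a high-yielding Gir cow and a high-yielding Shweta Kapila cow need not give similar amounts of milk, and neither milk yields nor ages are known here. Each library is labelled as a separate cow. Nothing in the labels says where, when or under what management the 2 breeds were sampled, so breed cannot be told apart from any such difference. The labels name peripheral blood mononuclear cells, while the extraction kit they name is made for whole blood.

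Blood RNA is a mixture of the RNA of many cell types. Natural killer (NK) cells and CD8 T cells kill infected cells with perforin, granzymes and related granule proteins, and NK cells read target cells through clusters of lectin-like and immunoglobulin-like receptors that differ in gene number between species and even between individuals. Cattle carry many gamma-delta T cells in blood, whose antigen receptor is built from the T cell receptor gamma and delta genes rather than from alpha and beta. Neutrophils and monocytes are the myeloid cells of first defence against bacteria, including those that cause mastitis. A difference in such a mixture can come from fewer cells of a type or from less RNA per cell, and these cannot be told apart here.

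The 12 libraries held 14.2 to 27.2 M (mega) estimated gene counts, with 17.8 ± 2.32 M in Gir and 21.2 ± 4.70 M in Shweta Kapila (mean ± SD, n = 6 each; 2-sided exact permutation p = 0.18, breed labels exchanged within yield class). Of 26229 gene identifiers, 15420 passed the filter on low counts and were tested. The granulocyte genes CXCR2 and CSF3R were present in every library (lowest 227 and 479 CPM, counts scaled to library size). Granule genes of granulocytes were low: MPO at 2.36 to 10.2 CPM, MMP9 at 3.52 to 22.1 CPM and LTF at 0.0543 to 3.25 CPM. S100A8 was at 44.3 to 179 CPM and S100A9 at 350 to 1432 CPM, while ELANE, CAMP and S100A12 had no matched identifier. The granulocyte content of the samples was not tested. The T cell gene CD3E (lowest 531 CPM) and the B cell gene CD79A (lowest 122 CPM) were present in every library too. The Shweta Kapila libraries were much less alike than the Gir libraries. On the first principal component, which held 37.7% of the variance, the SD was 67.4 among Shweta Kapila and 14.6 among Gir. The breeds were most apart on the second component, with 14.6% of the variance (exact permutation p = 0.025, adjusted p = 0.175 over the 7 library properties examined). The library Shweta Kapila low 3 stood apart from the other 5 of its breed in some lists: of 28 T cell marker genes it had the lowest value of its breed in 17, and of 18 B cell marker genes it had the highest value in 17. Other libraries of the breed stood apart as well. On the first component Shweta Kapila low 1 was at 103.7 and high 1 at -62.4, against -54.3 for low 3. On the third component, with 7.65% of the variance, low 3 was at 57.6 and the other 5 of its breed at -19.8 to 11.3. Shweta Kapila low 3 also had the most detected genes of the 12 libraries (19676, next 19153 in Shweta Kapila high 3). Shweta Kapila high 1 had the highest value of its breed in 55 of 77 cytosolic ribosomal protein genes. Calls that rest on Shweta Kapila low 3, and list medians that it moved by over 1.5 times, are given with and without it.

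Across all genes, no breed difference passed the adjusted threshold in edgeR's quasi-likelihood test with yield class as a block (0 of 15420, 0%, at a Benjamini-Hochberg adjusted p under 0.05). The lowest adjusted p was 0.0522. The adjusted p was under 0.1 for 12 genes, of which 8 were higher in Shweta Kapila and 4 in Gir. An unadjusted p under 0.05 was reached by 1496 genes, 598 of them higher in Gir (3.88% of the genes tested) and 898 higher in Shweta Kapila (5.82%), where evenly spread p-values would give 771 in all. Limma-voom with sample weights called 2870 genes, 1651 of them higher in Gir. DESeq2 on the same libraries, design and filter called 169 genes, 54 higher in Gir (0.351% of the 15384 genes to which it gave an adjusted p) and 115 higher in Shweta Kapila (0.748%). The direction of all 169 was the same in edgeR. The 6 libraries of one breed lay wholly above the 6 of the other for 41 genes on the Gir side (0.266%) and 52 genes on the Shweta Kapila side (0.337%). The 3 tests thus gave very different numbers of calls from the same counts.

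The genes of lowest p on the Gir side had little in common by known function. COL11A1, a chain of the fibrillar type XI collagen, ranged from 0.103 to 2.47 CPM in Gir (median 1.81) and from 0.0445 to 0.171 CPM in Shweta Kapila (median 0.0690), a difference of 4.19 ± 0.64 on the log2 scale (Gir minus Shweta Kapila, ± SE; edgeR adjusted p = 0.0582; DESeq2 adjusted p = 4.15e-06). Gir high 3, at 0.103 CPM, was the only Gir library inside the Shweta Kapila range. All 6 Shweta Kapila libraries were below 0.368 CPM, the value of 10 counts in the largest library, so the size of this difference rests on a few counts. CAPN3, a calcium-dependent protease best known from muscle, ranged from 6.35 to 11.0 CPM in Gir (median 9.61) and from 2.40 to 4.43 CPM in Shweta Kapila (median 3.79). The difference was 1.35 ± 0.23 (adjusted p = 0.0708), and the breeds did not overlap. DMBT1, a secreted scavenger receptor of mucosal defence that binds bacteria, ranged from 3.53 to 7.74 CPM in Gir (median 4.05) and from 0.460 to 1.88 CPM in Shweta Kapila (median 1.33), again without overlap (2.00 ± 0.34, adjusted p = 0.0708).

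SIGLEC1, a sialic acid receptor of macrophages and interferon-exposed monocytes, ranged from 6.74 to 21.3 CPM in Gir (median 9.85) and from 1.60 to 6.90 CPM in Shweta Kapila (median 2.00; difference 2.04 ± 0.38, adjusted p = 0.129). The overlap came from Shweta Kapila high 1 at 6.90 CPM, while the other 5 were at 2.97 CPM or less. DYSF, a membrane-repair protein of muscle that monocytes also make, had no overlap: 33.0 to 62.3 CPM in Gir against 10.3 to 30.8 CPM in Shweta Kapila (1.17 ± 0.26, adjusted p = 0.244). STEAP4, a metal reductase induced in inflammation, was the most abundant of these genes, with a median of 281 CPM in Gir and 102 CPM in Shweta Kapila (1.38 ± 0.32, adjusted p = 0.255), and its ranges overlapped. The magnesium channel TRPM6, the sodium-activated potassium channel KCNT1, the ciliary transport gene TTC21B, the cytospin SPECC1, the sarcomere protein TTN and the collagen-binding endocytic receptor MRC2 completed the 12 symbols of lowest p. Their differences were between 0.78 and 3.47, and SPECC1 and TTN did not overlap between the breeds. MRC2 was at 0 in 3 Shweta Kapila libraries and at most 1.63 CPM in Gir, so its difference rests on few counts as well.

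The unnamed gene with the largest of these differences was LOC109571678, a pseudogene in the reference table, which lies between ZNF536 and TSHZ3. It was between 7.07 and 22.4 CPM in 5 Gir cows, at 0.0525 CPM in Gir low 2, and between 0.107 and 0.685 CPM in Shweta Kapila (5.29 ± 0.88, adjusted p = 0.0683). So 5 of the 6 Gir cows were high, and 1 Gir cow was below every Shweta Kapila cow. LOC109576502, between ABHD5 and TOPAZ1, ranged from 28.6 to 72.5 CPM in Gir and from 11.5 to 32.7 CPM in Shweta Kapila (1.47 ± 0.28, adjusted p = 0.145).

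On the Shweta Kapila side the lowest p-values belonged to 2 unnamed genes. LOC109559668 has the NK receptor gene KLRK1 as a near neighbour. It ranged from 0.860 to 1.63 CPM in Gir (median 1.27) and from 2.94 to 13.97 CPM in Shweta Kapila (median 6.72). The difference was -2.44 ± 0.32 (edgeR adjusted p = 0.0522; DESeq2 adjusted p = 3.72e-09). LOC109559508, whose nearest named neighbour on one side is MYH9, ranged from 4.84 to 10.4 CPM in Gir (median 9.23) and from 17.6 to 77.9 CPM in Shweta Kapila (median 43.7; -2.44 ± 0.34, edgeR adjusted p = 0.0522; DESeq2 adjusted p = 8.05e-09). Neither gene overlapped between the breeds. KCNK1, a potassium leak channel, did not overlap either, at 2.88 to 3.83 CPM in Gir and 5.65 to 11.4 CPM in Shweta Kapila (-1.44 ± 0.22, adjusted p = 0.0582).

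SAXO1, which stabilises the microtubules of cilia and sperm tails, ranged from 0.287 to 0.869 CPM in Gir and from 0.799 to 4.37 CPM in Shweta Kapila (-2.18 ± 0.34, adjusted p = 0.0582). S1PR5, a sphingosine-1-phosphate receptor that guides the exit of NK cells into blood, had a median of 71.9 CPM in Gir and 200.1 CPM in Shweta Kapila (-1.40 ± 0.31, adjusted p = 0.244). Shweta Kapila low 3, at 76.6 CPM, was inside its Gir range of 39.4 to 99.2 CPM (-1.61, edgeR adjusted p = 0.0255 without that library). CCR8, a chemokine receptor of T cells, ranged from 4.54 to 16.8 CPM in Gir, and 5 Shweta Kapila libraries were at 37.9 to 76.7 CPM (-2.09 ± 0.47, adjusted p = 0.244). Shweta Kapila low 3 was at 7.31 CPM, inside the Gir range (-2.35, edgeR adjusted p = 0.0127 without that library). The adenylate cyclase ADCY3, the collagen hydroxylase P4HA2 and the actin-binding TRIOBP did not overlap between the breeds, with differences of -1.58, -1.11 and -0.64. ABHD15, CHRDL2, the protease inhibitor SERPINB2 and the transcription factor OSR2 were also among the symbols of lowest p, with differences of -1.64, -2.29, -1.76 and -2.96. All 4 overlapped between the breeds. CHRDL2 and OSR2 were at most 0.272 and 0.465 CPM in Gir and at most 1.39 and 1.76 CPM in Shweta Kapila, so their differences rest on few counts. The genes were ranked by p over both yield classes, and each of the leading genes named here had the same sign in both classes.

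**Figure D1:**
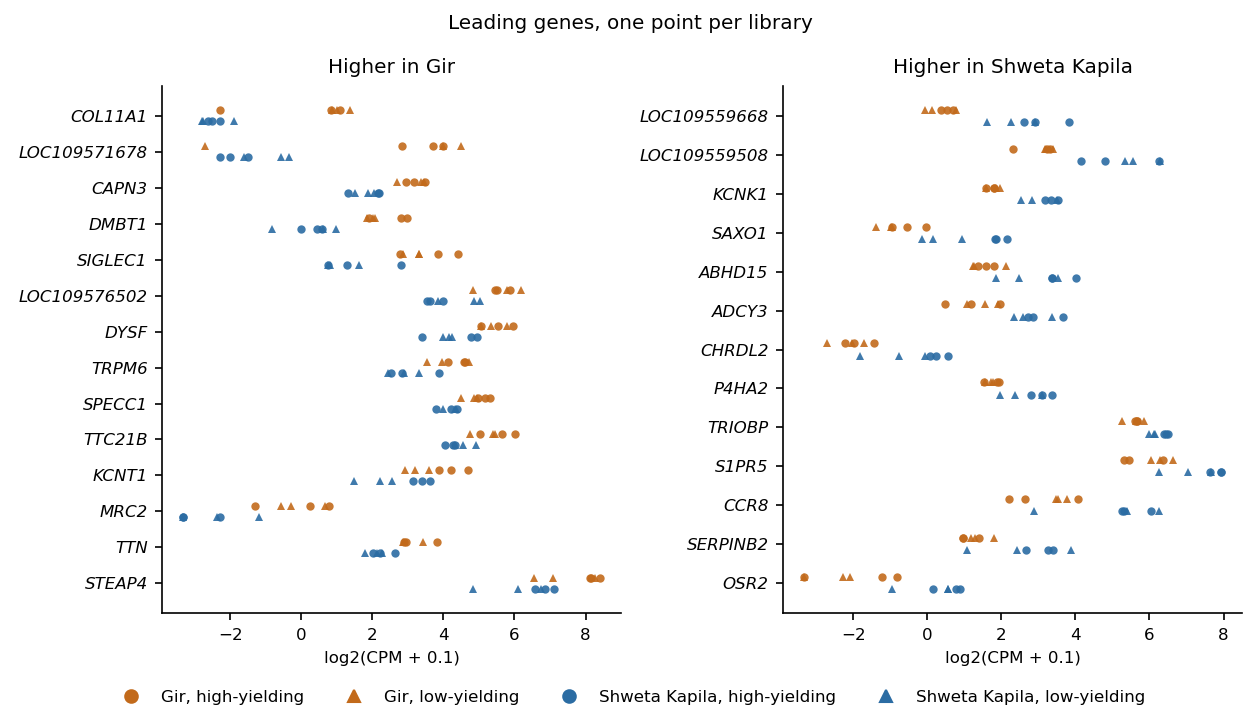
Level of the leading genes named here in each library, as log2(CPM + 0.1) on the x axis, with Gir in orange, Shweta Kapila in blue, circles for high-yielding and triangles for low-yielding cows. Genes are ordered by p from top to bottom. CAPN3, DMBT1, KCNK1, LOC109559668 and LOC109559508 are separated between the breeds, while COL11A1 and LOC109571678 each have 1 Gir library among or below the Shweta Kapila libraries.

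Large differences also belonged to 2 other unnamed genes, chosen after their values were seen. LOC109569787, a pseudogene between TIMM10 and SMTNL1, ranged from 0 to 0.334 CPM in Gir and from 1.33 to 2.94 CPM in Shweta Kapila (-3.16 ± 0.53, adjusted p = 0.0683). Its breeds did not overlap, but its Gir values were below 0.704 CPM, or 10 counts in the smallest library, so the size of this difference rests on few counts. LOC109577299, which lies beyond NRSN1, was at most 0.787 CPM in Gir. In 5 Shweta Kapila cows it was between 9.03 and 57.3 CPM, and in Shweta Kapila low 2 it was at 0.230 CPM (-6.03 ± 0.98, adjusted p = 0.0666). Genes such as this one and LOC109571678 were near absent in some cows and well expressed in others, with the exception to the breed pattern in a single cow.

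The number of genes that edgeR called depended on 1 library. Without Shweta Kapila low 3, edgeR called 107 of 15755 genes (0.679%), 76 higher in Shweta Kapila and 31 higher in Gir, against 0 with it. All 107 had the same sign over the 12 libraries, and 98 had an unadjusted p under 0.05 there. The 2 fits share all libraries but 1, so this agreement is largely built in. Of the 107, 62 (57.9%) were also among the 169 DESeq2 calls, of which they were 36.7%. Leaving out any other library gave at most 4 calls: 4 without Shweta Kapila high 1, 4 without Shweta Kapila low 2, 2 without Gir low 2, 1 without Gir high 3 and 0 without each of the other 7.

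The library was singled out because leaving it out moved the count most, and genes that its own values hold back enter the 107 by that choice, so its place among them is a description of what was left out and no independent evidence. For 63 of the 76 genes higher in the other Shweta Kapila cows, Shweta Kapila low 3 lay within the Gir range or below it, and for 68 it was nearer the Gir median than the median of its own breed. For 28 of the 31 genes higher in Gir, it lay within the Gir range or above it. Over the 76 genes the other 5 Shweta Kapila libraries stood a median of 1.37 above the Gir median on the log2(CPM + 0.1) scale, and Shweta Kapila low 3 stood at -0.11. Its T cell and B cell marker levels, given above, stood apart too, and their part in this result was not tested.

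Genes of killer lymphocytes were among the 49 of these 76 that have a symbol, and are picked out here by name. Of the 76, 13 belonged to any of the 42 lists. GZMA and FASLG were the only ones of 16 NK and cytotoxic genes among the 107, and PRF1 and NKG7 were not. CD8A and CD96 were the only ones of 28 T cell genes. Over all genes the share called was 0.679%. CX3CR1, the fractalkine receptor of killer lymphocytes and patrolling monocytes, was at 125 to 351 CPM in Gir, 457 to 1186 CPM in the other 5 Shweta Kapila cows, and 148 CPM in Shweta Kapila low 3. The difference was -1.96 without that library (adjusted p = 0.0255) and -1.74 ± 0.44 with it (adjusted p = 0.290). GZMA, a granzyme of killer cells, was at 29.4 to 151 CPM in Gir, 171 to 490 CPM in the other 5, and 32.3 CPM in Shweta Kapila low 3 (-2.20, adjusted p = 0.0362 without that library). CD8A, the co-receptor of killer T cells, was at 63.7 to 149.8 CPM, 178 to 335 CPM and 60.1 CPM in the same order (-1.55, adjusted p = 0.0255). The death ligand FASLG, the killer-cell adhesion receptors CD96, SLAMF7 and CRTAM, the collagen-binding integrin ITGA1 and the interferon-induced OASL were among the 76 as well. Outside the fixed rule and chosen after their values were seen, SYT11, NUCB2, TIFA and ENPP4 gave the same picture: Shweta Kapila low 3 was below every Gir cow for SYT11 (19.4 CPM), TIFA (48.1 CPM) and within the Gir range for NUCB2 (33.5 CPM) and ENPP4 (9.25 CPM). Among the 107 were also LOC109559668, LOC109559508, LOC109569787 and KCNK1, for which Shweta Kapila low 3 was above every Gir cow, like the rest of its breed.

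**Figure D2:**
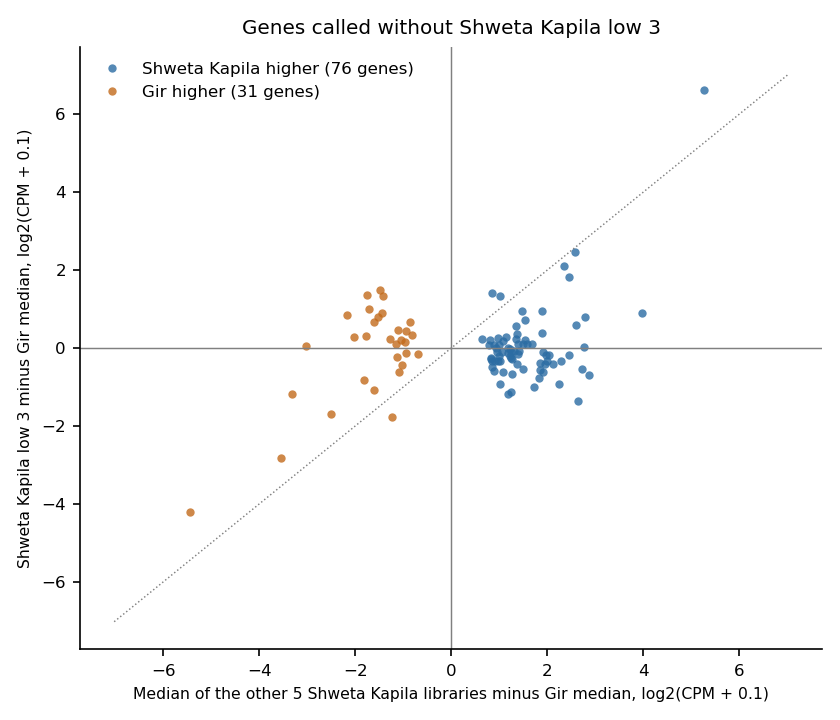
Each point is 1 of the 107 genes called without Shweta Kapila low 3. The x axis gives the median of the other 5 Shweta Kapila libraries minus the Gir median and the y axis gives Shweta Kapila low 3 minus the Gir median, both on the log2(CPM + 0.1) scale. Points on the dotted diagonal would behave like the rest of the breed, and most points lie near 0 on the y axis instead, which the choice of this library as the one left out favours.

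Runs of neighbouring genes on the Shweta Kapila side stood out among the genes of lowest p. The 5 runs below were chosen after their values were seen, which favours high counts within them. Each is given by its 2 flanking named genes with all tested genes between them. On the Shweta Kapila side, 5.82% of all genes tested had an unadjusted p under 0.05. DESeq2 called 0.748% there, and 0.337% did not overlap between the breeds. The reference table gives the LOC genes no family name, and such runs hold near copies between which reads can be split, so single values within them are uncertain.

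Between RBFOX2 and MYH9, where other mammals carry the apolipoprotein L family, 11 genes were tested. All 11 were lower in Gir, with a median of -0.97 and a range of -2.44 to -0.24, beside a median of -0.04 over all genes tested. The unadjusted p was under 0.05 for 9 of the 11, DESeq2 called 4, and 10 were lower in Gir in both yield classes. LOC109559512 ranged from 135 to 246 CPM in Gir and from 307 to 570 CPM in Shweta Kapila without overlap (-1.16 ± 0.20, edgeR adjusted p = 0.0708; DESeq2 adjusted p = 4.04e-05). LOC109559513 did not overlap either: Gir was at 156 to 216 CPM, Shweta Kapila high 1 and high 2 were at 991 and 1127 CPM, and the other 4 were at 231 to 352 CPM. The lncRNA LOC109559511 and LOC109559508 above were the other genes without overlap, which makes 4 of 11 here, beside 0.337% of all genes. The mean log2 CPM of the 11 genes was 5.17 to 5.82 in Gir and 6.03 to 6.70 in Shweta Kapila, so this run kept the breeds apart with Shweta Kapila low 3 included.

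Between MAGOHB and GABARAPL1, the NK gene complex that holds KLRK1 (the activating receptor NKG2D), 13 of 14 tested genes were lower in Gir (median -1.69, range -3.12 to 1.62). The unadjusted p was under 0.05 for 10 of the 13 and for LOC109558821, the 1 gene higher in Gir, and DESeq2 called 4. KLRK1 itself was at 20.2 to 81.8 CPM in Gir and 15.9 to 316 CPM in Shweta Kapila (-1.65 ± 0.56, adjusted p = 0.389). The lowest Shweta Kapila value was again Shweta Kapila low 3, which had the lowest value of its breed for 10 of the 14 genes.

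The run between AMPH and LSM8, the place of a T cell receptor gamma locus in mammals, held 3 constant-region genes and 1 lncRNA among the genes tested, and all 4 were lower in Gir (median -1.36). The constant-region gene LOC109557567 was at 81.0 to 194 CPM in Gir, 362 to 606 CPM in 5 Shweta Kapila cows and 128 CPM in Shweta Kapila low 3 (-1.61 ± 0.33, edgeR adjusted p = 0.192; DESeq2 adjusted p = 0.000707). LOC109557568 was at 32.9 to 76.3 CPM in Gir and 98.9 to 147 CPM in those 5, with Shweta Kapila low 3 at 56.0 CPM (-1.12 ± 0.23). LOC109557569 was at 19.7 to 80.2 CPM in Gir, 95.8 to 264 CPM in those 5 and 51.7 CPM in Shweta Kapila low 3 (-1.62 ± 0.39). DESeq2 called all 3. Antigen receptor genes as a whole, taken by their annotated biotype, leaned the same way. All 9 tested constant-region genes were lower in Gir (median -0.88, 6 with an unadjusted p under 0.05). The 3 constant-region genes of this run are among both the 9 and the 6, so this count is not independent of them. Of 28 variable segments, 22 were lower in Gir (median -0.60, 10 with an unadjusted p under 0.05, against 2 of the 6 on the other side). Of these, 23 variable segments lie between DAD1 and OR4E1, the T cell receptor alpha and delta locus.

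Killer-granule loci made up the last of the 5 runs. Between ATOH8 and SFTPB, where other mammals carry granulysin, all 3 tested genes were lower in Gir (-1.99 to -2.45). The most abundant of them, LOC109566163, was at 50.8 to 264 CPM in Gir and 168 to 1598 CPM in Shweta Kapila (-1.99 ± 0.59, edgeR adjusted p = 0.322; DESeq2 adjusted p = 0.0150). Its lowest Shweta Kapila value was that of low 3. Between STOML1 and STXBP6, the place of the granzyme B and mast cell protease cluster, 8 of 11 tested genes were lower in Gir (median -1.55), 5 of them with an unadjusted p under 0.05, and DESeq2 called 2. The medians of all 5 runs were below 0 in each yield class and without Shweta Kapila low 3. The runs were chosen on these same libraries, so the choice favours this and it is no independent evidence.

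**Figure D3:**
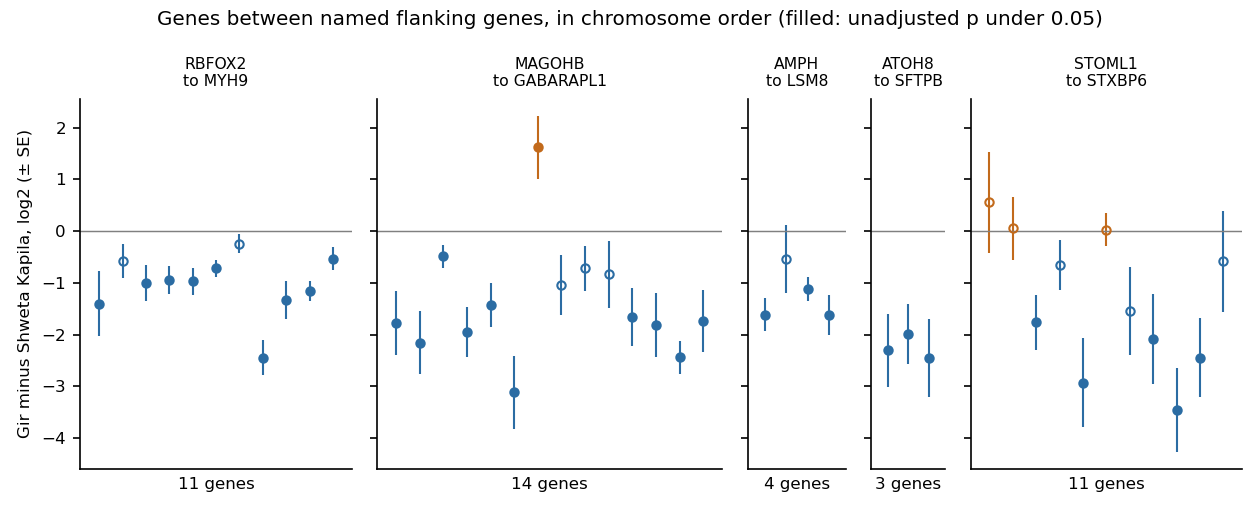
Gir minus Shweta Kapila difference of every tested gene in the 5 runs, on the log2 scale with its standard error, in chromosome order. Filled points have an unadjusted p under 0.05. Nearly all points are below 0 (blue, Shweta Kapila higher), and LOC109558821 in the run from MAGOHB to GABARAPL1 is the filled exception at 1.62.

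Lists of blood cell markers and of pathway genes were read against all genes tested, of which 45.1% were higher in Gir, with a median of -0.04 (-0.01 without Shweta Kapila low 3). The shares of all genes with an unadjusted p under 0.05 are the 3.88% on the Gir side and 5.82% on the Shweta Kapila side given above. No list held a gene called by edgeR over the 12 libraries. Of 16 NK and cytotoxic genes, 15 were lower in Gir, with a median of -0.69, and 8 had an unadjusted p under 0.05. GZMA stood at -1.93 ± 0.56 (adjusted p = 0.322), FASLG at -1.87 ± 0.58 (adjusted p = 0.344), and the pore-forming perforin gene PRF1 at -1.28 ± 0.40 (adjusted p = 0.347). PRF1 was at 46.5 to 133 CPM in all Gir cows, 239 to 444 CPM in the 3 high-yielding Shweta Kapila cows, and 102 to 121 CPM in the 3 low-yielding ones, which put the difference at -2.34 among high yielders and -0.21 among low yielders. The test of that gap between yield classes did not pass (interaction adjusted p = 0.955). The granule gene NKG7 had the same layout, with -2.19 and -0.08. The list median was -1.64 among high yielders and -0.15 among low yielders. The summed level of the 16 genes was 699.7 to 1367 CPM in Gir and 964 to 4527 CPM in Shweta Kapila, which overlap.

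T cell genes were split. Of 28 genes, 20 were lower in Gir (median -0.26), and 10 of these had an unadjusted p under 0.05. CD96 (-1.20 ± 0.30, adjusted p = 0.276), CD8A (-1.31 ± 0.36, adjusted p = 0.316) and the receptor subunit CD3G (-1.12 ± 0.38, adjusted p = 0.389) were among these. The 2 genes with an unadjusted p under 0.05 on the Gir side were CCR7, the lymph-node homing receptor of naive T cells (209 to 393 CPM in Gir, 114 to 259 CPM in Shweta Kapila, 0.66 ± 0.22), and CD4, the co-receptor of helper T cells (270 to 339 CPM against 193 to 297 CPM, 0.36 ± 0.14). None of these 5 passed the adjusted threshold. The list median was -0.72 among high yielders and 0.14 among low yielders.

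Of the myeloid lists, those of neutrophils and monocytes had medians above 0, and that of eosinophils and basophils had 7 of 11 genes lower in Gir (median -0.11, none with an unadjusted p under 0.05). Of 17 neutrophil genes, 16 were higher in Gir (median 0.49; 0.59 among high yielders and 0.39 among low yielders), 4 with an unadjusted p under 0.05. ALPL, the alkaline phosphatase of granulocytes, was at 24.7 to 77.3 CPM in Gir and 9.29 to 43.4 CPM in Shweta Kapila (1.14 ± 0.36, adjusted p = 0.356). MGAM, a maltase made by granulocytes, stood at 1.05 ± 0.36 (adjusted p = 0.389). The neutrophil receptor CXCR2 differed little (0.16 ± 0.33). Of 12 monocyte genes, 10 were higher in Gir (median 0.44, with 0.89 among high yielders and 0.16 among low yielders), and CX3CR1, which killer lymphocytes share, was on the other side. SIGLEC1 had the largest difference of that list. The summed level of the 12 genes was 1556 to 2368 CPM in Gir (median 1875) and 1311 to 3129 CPM in Shweta Kapila (median 2199), so the sum and the median of the differences were on opposite sides. The growth factor receptor CSF1R was at 83.7 to 296 CPM in Gir and 56.0 to 158 CPM in Shweta Kapila (0.61 ± 0.27, adjusted p = 0.4999). A list of 8 antimicrobial genes, 6 of them shared with the neutrophil list, had 7 higher in Gir (median 0.46, and 0.77 without Shweta Kapila low 3), with the peptidoglycan-binding PGLYRP4 and PGLYRP1 at 1.45 ± 0.43 and 1.59 ± 0.72 (adjusted p = 0.325 and 0.5002).

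Of 18 B cell genes, 14 were higher in Gir (median 0.33), with 0.81 among high yielders and -0.05 among low yielders, and the transcription factors BCL11A (0.58 ± 0.26) and EBF1 (0.58 ± 0.28) had the lowest p-values. Without Shweta Kapila low 3, whose CD79A level of 1085 CPM was the highest of the 12, the B cell median was 0.60. Plasma cell genes leaned the other way: 11 of 14 were lower in Gir (median -0.35, and -0.21 without Shweta Kapila low 3). Of these SEC11C, part of the signal peptidase, was at 21.3 to 37.9 CPM in Gir and 35.7 to 57.7 CPM in Shweta Kapila (-0.69 ± 0.19, adjusted p = 0.316). Platelet genes were higher in Gir for 16 of 18 (median 0.25, and 0.14 to 0.40 on leaving out 1 library), 1 with an unadjusted p under 0.05, a share near that of all genes. Of gamma-delta T cell markers outside the receptor genes only 3 were tested, and 2 of these were higher in Gir. Their median was 0.14 and their range -0.28 to 0.35, with no unadjusted p under 0.05.

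**Figure D4:**
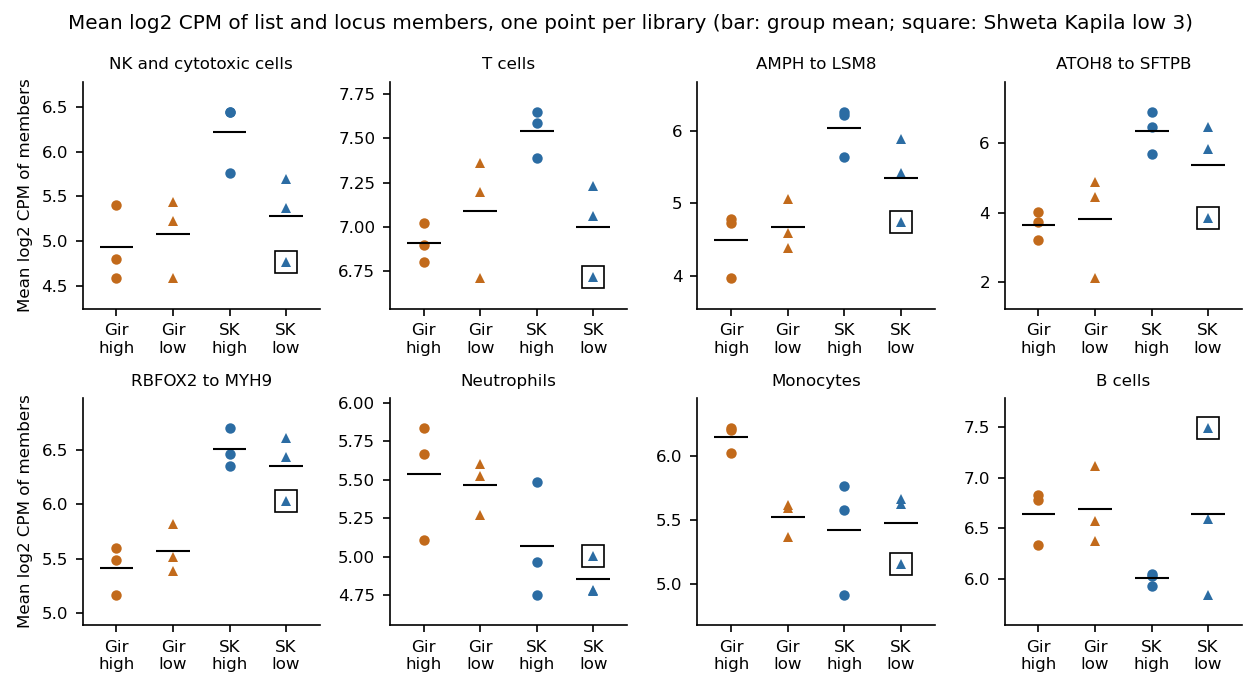
Mean log2 CPM of the members of 5 cell type lists and 3 runs in each library, by breed and yield class (SK, Shweta Kapila), with the group mean as a bar and Shweta Kapila low 3 in a square. In the NK, T cell, AMPH to LSM8 and ATOH8 to SFTPB panels the squared library lies among the Gir libraries, and in the RBFOX2 to MYH9 panel it lies above all of them.

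Interferon-response genes did not move as 1 block. Of 44, 32 were higher in Gir (median 0.18), 7 with an unadjusted p under 0.05, and 2 on the Shweta Kapila side. The lowest p-values belonged to that minority: EPSTI1 was at 121 to 162 CPM in Gir and 173 to 307 CPM in Shweta Kapila without overlap (-0.55 ± 0.16, adjusted p = 0.322), and OASL stood at -1.38 ± 0.42 (adjusted p = 0.332). The antiviral GTPase MX2 stood at 1.37 ± 0.48 (adjusted p = 0.406) and OAS2 at 1.22 ± 0.45 (adjusted p = 0.425) on the Gir side. Pattern recognition receptors were higher in Gir for 21 of 31 (median 0.18), with 0.55 among high yielders and -0.19 among low yielders. The bacterial sensor NOD1 had the lowest p of that list (0.80 ± 0.26, adjusted p = 0.368). MHC class I genes were lower in Gir for 12 of 14 (median -0.22), including the proteasome activator PSME1 (-0.50 ± 0.18) and the chaperone CALR (-0.36 ± 0.15).

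Lists of protein production, turnover and energy metabolism had small medians. The median was -0.22 for 45 proteasome subunits (34 lower, 8 with an unadjusted p under 0.05), with -0.24 in each yield class. PSMA3 was at 12.5 to 28.4 CPM in Gir and 25.9 to 47.3 CPM in Shweta Kapila (-0.77 ± 0.22, adjusted p = 0.322). The unfolded protein response had 22 of 30 genes lower (median -0.21), with its transcription factor XBP1 at -0.47 ± 0.16 (adjusted p = 0.389). Nuclear genes of oxidative phosphorylation had 58 of 74 lower (median -0.23), with -0.45 among high yielders, 0.07 among low yielders and -0.05 without Shweta Kapila high 1. NDUFS4, a subunit of complex I, did not overlap between the breeds (4.59 to 8.79 CPM in Gir, 8.98 to 22.6 CPM in Shweta Kapila, -1.04 ± 0.26, edgeR adjusted p = 0.290; DESeq2 adjusted p = 0.0237). SDHC of complex II was on the other side at 0.63 ± 0.21. Cytosolic ribosomal proteins had 56 of 77 lower (median -0.14, and -0.07 without Shweta Kapila low 3), with -0.43 among high yielders and 0.16 among low yielders. Without Shweta Kapila high 1 that median was 0.04, and the summed level of the ribosomal genes had a higher median in Gir (41490 CPM) than in Shweta Kapila (39964 CPM). Glycolysis genes stood higher in Gir for 21 of 30 (median 0.20, and 0.31 without Shweta Kapila low 3), led by the kinase gene PFKFB4 (0.75 ± 0.24, adjusted p = 0.345).

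ABCG2, a transporter known from a milk composition locus of cattle, was at 13.98 to 18.6 CPM in Gir and 8.83 to 13.5 CPM in Shweta Kapila (0.62 ± 0.17, edgeR adjusted p = 0.316; DESeq2 adjusted p = 0.0154). The insulin receptor gene INSR stood at 0.42 ± 0.15 (adjusted p = 0.425). Of the 33 genes in that list, 19 were higher in Gir (median 0.10, and 0.15 without Shweta Kapila low 3), 2 with an unadjusted p under 0.05 and 1 on the other side. ELF5, a transcription factor of the milk-secreting epithelium, did not overlap in the other direction, but only just (highest Gir 1.136 CPM, lowest Shweta Kapila 1.142 CPM, -0.53 ± 0.28), and was chosen after its values were seen. BHLHE40, a clock-linked repressor also active in lymphocytes, was at 85.5 to 181 CPM in Gir and 194 to 231 CPM in Shweta Kapila (-0.79 ± 0.19, edgeR adjusted p = 0.267; DESeq2 adjusted p = 0.0161). The clock list as a whole had 15 of 21 genes higher in Gir (median 0.24, and 0.40 without Shweta Kapila low 3), and the hour of sampling is not given in the sources used here. Sterol synthesis (median 0.01 over 33 genes), glucocorticoid response (0.02 over 19), inflammatory and NF-kB genes (-0.00 over 25), zinc finger genes (0.05 over 209) and solute carriers (0.04 over 233) had medians near that of all genes. Without Shweta Kapila low 3 these were 0.14, -0.02, 0.09, 0.14 and 0.17 in the same order.

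**Figure D5:**
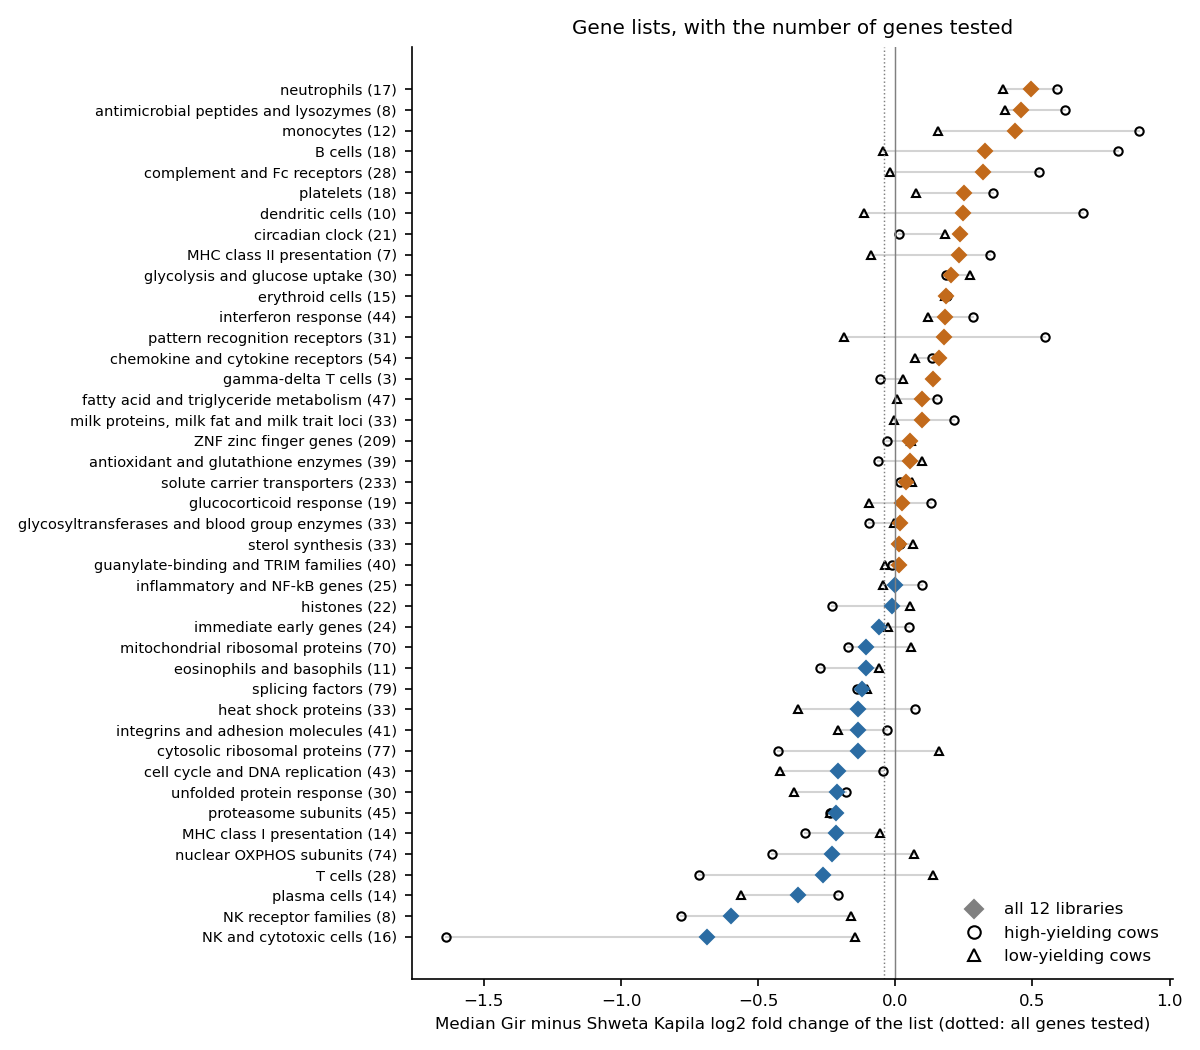
Median Gir minus Shweta Kapila log2 difference of each of the 42 gene lists (diamond), with the medians in high-yielding (circle) and low-yielding cows (triangle), and the number of genes tested in brackets. Neutrophil genes are highest at 0.49 and NK and cytotoxic genes lowest at -0.69, and several lists, such as T cells and B cells, have their circle and triangle on opposite sides of 0.

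The breed difference was then asked of the yield classes apart, which share no cow. Over all genes the 2 sets of differences had a Pearson correlation of 0.225 (a description over genes, which are not independent), and 56.9% had the same sign. Of the 100 genes of lowest p in high-yielding cows, 82 had the same sign in low-yielding cows. Of the 100 of lowest p in low-yielding cows, 74 had the same sign in high-yielding cows, and 5 genes were in both sets. A fit among the 6 high-yielding cows called 15 genes and one among the 6 low-yielding cows called 0. The test of the difference itself, the interaction of breed and yield class, called 0 of 15420 genes (0%; lowest edgeR adjusted p = 0.955). An unadjusted p under 0.05 was reached by 587 genes (3.81%, fewer than the 771 of evenly spread p-values). DESeq2 called 9 genes for the interaction, among them the chemokine gene CCL5 (-3.45, chosen after its values were seen), and limma-voom called 1321. The list medians of the yield classes are given as descriptions.

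Genes were also counted by the kind of their identifier, with no test between the kinds. An unadjusted p under 0.05 was reached by 8.68% of 11896 genes with a symbol, by 15% of 2116 genes with only a LOC number, and by 10.5% of 1391 identifiers without a match in the reference table. Of the 12 genes with an edgeR adjusted p under 0.1, 7 had a LOC number and 5 a symbol. Among the LOC genes, 214 of the 317 with an unadjusted p under 0.05 were higher in Shweta Kapila.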

How the data were processed

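Expression was measured by sequencing ribosomal-RNA-depleted, strand-marked libraries, per the labels' protocols. The authors deposited 1 table of estimated counts per gene identifier, of which 57.0% are not whole numbers. Trimmomatic and FastQC are named in the submitters' processing notes. The aligner, the counter and the genome build: not given in the sources used here. Symbols, biotypes and gene order came from a RefSeq table of another assembly (NIAB-ARS_B.indTharparkar_mat_pri_1.0), which matched 22754 of 26229 identifiers, so no coordinates are given. No sequence was used here.

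Counts were rounded, filtered (filterByExpr, minimum count 10, total 15), scaled by TMM and tested with edgeR 4.0.16 (R 4.3.3; quasi-likelihood, robust; yield class as block; Benjamini-Hochberg adjusted p under 0.05), with DESeq2 1.42.0 and limma-voom 3.58.1 as alternatives. Differences are log2, Gir minus Shweta Kapila. On simulated data for this comparison over 15420 genes, 98 of 100 genes changed by 2 on the log2 scale and 48 of 100 changed by 1 were recovered, with 7 false calls. The changed genes were drawn from the more abundant genes only, and no shift shared by the genes of a library was simulated. These shares therefore need not hold for genes of low level or for the real libraries. Named genes were the 12 symbols and 2 LOC genes of lowest p on each side and, per list, the 2 members of lowest p. A gene that this rule names is not reported here. Others were chosen after their values were seen: the genes of the 5 runs, PRF1, NKG7, CD3G, CCR7, CD4, MX2, OAS2, CSF1R, CXCR2 and those so described. The comparison and the 42 lists were chosen with earlier results of these data known. Replicate numbers do not pair cows across breeds (correlations of deviations -0.23 to 0.05). p-values measure the spread between these cows.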

Additional observations from a re-analysis of the deposited data

Results flagged for a closer look

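In sets of 6 libraries, 1 library lay far from the others of its breed in 11 of 168 sets of values examined, where chance gives about 1 in 20. The figure given is the gap to the nearest library as a share of the range of the breed. Gir high 3 was lowest for COL11A1 (0.669) and highest for the milk trait list (0.633). Gir high 2 was lowest for LOC109559508 (0.723), Gir low 1 highest for the circadian clock list (0.667), and Gir low 3 lowest for integrins and adhesion molecules (0.635). Shweta Kapila high 1 was highest of its breed for SIGLEC1 (0.742), MHC class I presentation (0.717), chemokine and cytokine receptors (0.678), neutrophils (0.655) and proteasome subunits (0.626). Shweta Kapila low 3 was highest for MRC2 (0.689).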

How the results depend on the processing

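The count of 0 genes called between the breeds was 0 in 14 of 28 alternatives, and 103 of 108 named genes kept their sign in every alternative. edgeR called 3 genes with no filter on low counts, 5 without the yield block, 10 with the log2 total count as a covariate, 22 with the share of counts on the 37 identifiers of 7 or 8 digits as a covariate, 10 without the 3 largest libraries, 2 without the robust fit and 15 among the high-yielding cows alone, and 0 among the low-yielding cows. DESeq2 called 169 genes and limma-voom 2870. LOC109559668 and LOC109559508 were called in each of these edgeR settings except among the cows of 1 yield class. COL11A1 was called without the filter, without the yield block and with the share as a covariate, and KCNK1 and LOC109577299 without the yield block. Leaving out 1 library gave 0 to 107 calls: 107 without Shweta Kapila low 3, and otherwise at most 4, namely LOC109559508, LOC109559668, CRYBA1 and SIGLEC1 without Shweta Kapila high 1, LOC109577299, LOC109559668, LOC109577369 and LOC109575255 without Shweta Kapila low 2, LOC109571678 and LOC109575720 without Gir low 2, and COL11A1 without Gir high 3. A replicate block gave 0 calls (lowest adjusted p 0.265). The interaction count was 9 in DESeq2, 1321 in limma-voom and 0 to 1 on leaving out 1 library (1, TMTC2, without Shweta Kapila low 1). Signs turned for RFXAP with the log2 total (0.0194) and without the 3 largest libraries (0.300), for HSPA8 (0.0231) and DUSP2 (-0.00497) without the 3 largest, for FLT3 in the low-yielding cows (-0.0752) and for SOX4 on leaving out 1 library (-0.451 to 0.0138). List medians that turned sign in at least 1 alternative included ribosomal proteins (-0.56 to 0.18) and oxidative phosphorylation (-0.56 to 0.10), while those of NK and cytotoxic cells (-1.12 to -0.51), neutrophils (0.41 to 0.72) and the run from RBFOX2 to MYH9 (-1.08 to -0.70) did not; list medians were recomputed after seeing the data. The cause of these changes was not tested. Depth limits genes below about 0.704 CPM, which is 10 counts in the smallest library.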
